A study of Mus musculus with 6 samples.

Results

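The genes described here are 30 of the 25700 genes counted in the bulk RNA-Seq of mouse bone marrow-derived macrophages (BMDMs). They comprise 20 genes that encode selenoproteins, 8 further genes of selenocysteine synthesis, insertion and recycling, the selenoprotein P receptor gene Lrp8, and Ccdc152, a gene that overlaps Selenop on the opposite strand. The 30 were chosen by their place in the pathway, with earlier results of these data known, and were matched by gene symbol. The rule used no threshold on a measured value. All 30 passed the filter on low counts. Marrow of C57BL/6J mice aged 8 to 10 weeks was cultured with 100 ng/ml of the macrophage growth factor M-CSF. Heme-treated BMDMs (n = 3) received 300 µM heme bound to albumin from day 3, and control BMDMs (n = 3) received albumin alone. Both groups came from the same unmodified strain, shared the growth factor, and were harvested on day 7, so the comparison asks how gene expression differed after heme was present while macrophages formed.

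Selenocysteine is an amino acid like cysteine with selenium in place of sulfur. It is encoded by TGA, which normally ends translation, and is inserted only where the mRNA also carries a stem-loop called the SECIS element. The amino acid is made on its own tRNA, from selenium that the selenophosphate synthetases activate. SECIS-binding proteins and a dedicated elongation factor then bring it to the ribosome. Most selenoproteins are redox enzymes, among them the glutathione peroxidases, which reduce peroxides, and the thioredoxin reductases. Selenop is different, since it is secreted and carries selenium between cells, and Lrp8 (also called ApoER2) takes it up.

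The TGA codons separate the members in a way that bears on the levels given later, so a few are printed here. In the GENCODE M21 models on GRCm38.p6, the 20 selenoprotein genes held 30 selenocysteine codons in the transcript used for each. Selenop held 10 of them, Dio2 held 2, and each of the other 18 genes held 1. In the lines below, the sense strand runs 5′ to 3′ and capitals mark the selenocysteine codon that the line names. In the line for the seventh Selenop codon, the lower-case tga is codon 368. In the line for the last Selenop codon it is codon 375. Both of these are selenocysteine codons as well.
Gpx1, chr9:108339451-108339453, codon 47 of 201: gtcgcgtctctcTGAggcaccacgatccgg
Gpx3, chr11:54907256-54907258, codon 73 of 226: gtagccagctacTGAggtctgacagaccaa
Txnrd1, chr10:82896037-82896039, codon 612 of 613: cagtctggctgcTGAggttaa
Txnrd3, chr6:89674789-89674791, codon 614 of 615: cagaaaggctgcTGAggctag
Dio2, first of 2, chr12:90729823-90729825 on the minus strand, codon 130 of 266: ggttcagccaccTGAccacctttcactagg
Selenop, first of 10, chr15:3274848-3274850, codon 59 of 380: cttcaagccagcTGAtacttgtgtcttctg
Selenop, the seventh of 10, chr15:3279663-3279665, codon 366 of 380: gccaaccccaacTGAagctgagataatcag
Selenop, last of 10, chr15:3279696-3279698, codon 377 of 380: aggaagtgaaaaTGAcattcaaactaa
Selenoh, chr2:84670381-84670383 on the minus strand, codon 38 of 116: cattgtacgagcTGAcgcgtgtacggccgc
Selenow, chr7:15920464-15920466 on the minus strand, codon 13 of 88: tattgtggagctTGAggctataagcccaag
The thioredoxin reductase genes place the codon next to the end of the reading frame, directly after a cysteine codon (tgc in the lines above). Selenon also had a cysteine codon directly before the selenocysteine codon, but at codon 428 of 557. In Selenos (codon 189 of 190), Selenok (92 of 94) and Selenoo (665 of 667) it was also near the end, without that cysteine codon. A cysteine codon 3 codons before the selenocysteine codon occurred in 5 members, Selenoh, Selenom, Selenoo, Selenot and Selenow. The base after TGA was G at 13 codons, C at 9, A at 6 and T at 2.

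Heme treatment was accompanied by changes in both directions among the 30 genes. By the edgeR quasi-likelihood test, 10 were higher and 11 were lower in heme-treated BMDMs at a Benjamini-Hochberg adjusted p under 0.05, and 9 did not pass. The 21 called genes are 70.0% of the list, against 62.5% of the 12433 genes tested, so the share called was near that of all genes. Higher calls made up 31.7% and lower calls 30.8% of all genes tested. The median log2 fold change was -0.02 over the 30 genes and 0.00 over all genes tested. Changes of more than 1 on the log2 scale were called for 7 members (23.3%), against 19.5% of all genes. Of the 7, 3 were higher, against 11.1% of all genes tested, and 4 were lower, against 8.42%. Without Ccdc152, whose counts followed those of Selenop as given below, 6 of 29 members (20.7%) remained, 3 higher and 3 lower. In 20 members no heme library overlapped a control library in level, against 68.8% of all genes. Heme was above control in 9 of them, against 34.8% of all genes, and below in 11, against 34.0%. With 3 libraries against 3, an exact two-sided permutation test of a single gene cannot go below p = 0.1.

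**Figure D1:**
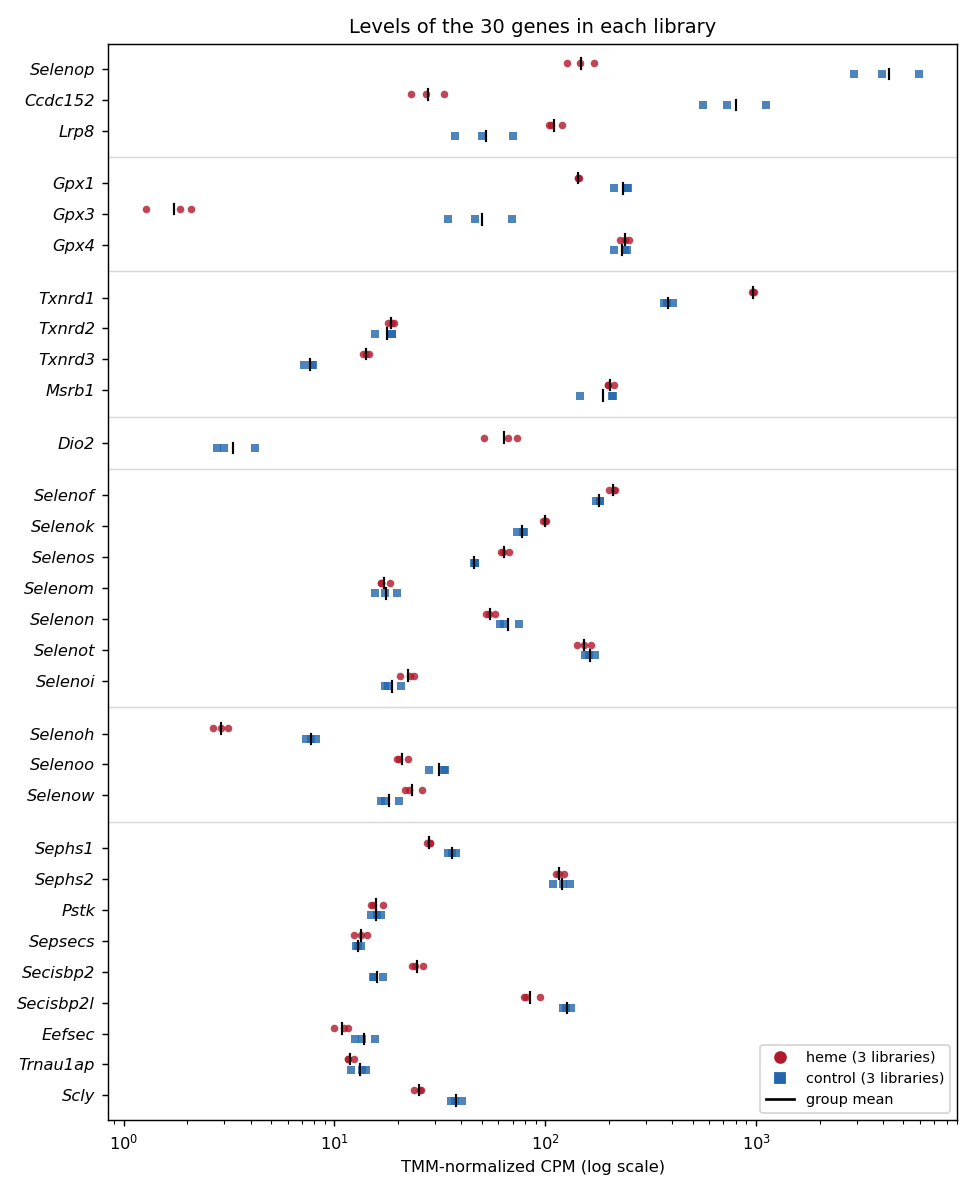
Levels of the 30 genes in each library, as TMM-normalized counts scaled to library size (CPM, log axis), with heme libraries as red circles, control libraries as blue squares and group means as black ticks. The Selenop, Ccdc152, Gpx3 and Dio2 groups lie far apart, while most genes of the synthesis machinery lie between about 10 and 130 CPM with groups close together.

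Selenop had the largest fall of the list, together with Ccdc152. Its level, in CPM (counts per library total, scaled by TMM, edgeR's correction for library composition), was 127, 171 and 147 in the 3 heme-treated cultures, against 2925, 5913 and 3965 in the 3 control cultures. The groups were far apart, and the control cultures differed among themselves (CV 35.6%). The log2 fold change was -4.85 ± 0.26 (SE, adjusted p = 3.19e-07), which is 28.8-fold lower with heme. Selenop lies at chr15:3268547-3280508. Because these are bulk samples, fewer cells of a type and less RNA per cell cannot be told apart.

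Ccdc152, a coiled-coil gene whose exons run opposite to those of Selenop, had nearly the same change. Its level was 23.1, 32.9 and 27.1 CPM in heme-treated cultures, against 557, 1114 and 725 CPM in control cultures (log2 fold change -4.85 ± 0.26, adjusted p = 3.52e-07). Its counts were 18.2%, 19.3% and 18.5% of those of Selenop in heme-treated libraries, against 19.0%, 18.8% and 18.3% in control libraries, so all 6 ratios lay between 18.2% and 19.3%. The genes share 439 exon bases, which are 15.4% of the Selenop exons and 32.3% of the Ccdc152 exons. The library kit keeps strand, but the strand setting of the counting is not given in the sources used here, so the Ccdc152 values are uncertain. With both genes summed into 1, the log2 fold change was -4.85 (adjusted p = 3.3e-07). That value follows from the near-constant ratios above, so the sum does not address the strand setting.

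Lrp8, the receptor that takes up Selenop, moved the other way (chr4:107802261-107876840). Its level was 104, 120 and 106 CPM in heme-treated cultures, against 70.1, 37.1 and 49.9 CPM in control cultures. All heme-treated cultures were above all control cultures, with a log2 fold change of 1.07 ± 0.19 (adjusted p = 0.00081). Leaving out 1 library at a time moved it between 0.86 and 1.33. Among the control cultures the order of Lrp8 was the reverse of that of Selenop, with replicate 2 highest in Selenop and lowest in Lrp8, which is a description of 3 values.

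Among the 3 glutathione peroxidases, which use glutathione to reduce peroxides, 2 were called lower and Gpx4 was not called. That is 66.7% called, near the 62.5% over all genes tested, of which 30.8% were lower. Gpx3, the secreted member (chr11:54902453-54910377), was 2.09, 1.86 and 1.28 CPM in heme-treated cultures, against 34.7, 69.6 and 46.3 CPM in control cultures. The change of -4.84 ± 0.30 on the log2 scale (adjusted p = 7.63e-07) was close in size to that of Selenop, the other secreted selenoprotein measured. In the control cultures the ratio of Selenop to Gpx3 CPM was 84.3, 84.9 and 85.7, while Selenop varied by 35.6% and Gpx3 by 35.5% (CV). In heme-treated cultures the ratio was 60.8, 91.9 and 114, at the low Gpx3 levels given above. The tight control ratio was noticed after the values were seen.

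Gpx1, the abundant cytosolic peroxidase, was 145, 143 and 143 CPM in heme-treated cultures, against 212, 247 and 243 CPM in control cultures. It fell by 0.70 on the log2 scale (SE 0.07, adjusted p = 2.3e-05), with no overlap between groups. Gpx4, which reduces lipid hydroperoxides in membranes and restrains ferroptosis, was 249, 226 and 240 CPM in heme-treated cultures, against 213, 244 and 239 CPM in control cultures. These groups overlapped, and the log2 fold change of 0.04 ± 0.07 did not pass the test (adjusted p = 0.661). When library sizes alone set the scale it was -0.18 (adjusted p = 0.037). That scaling put the median of all genes at -0.22.

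**Figure D2:**
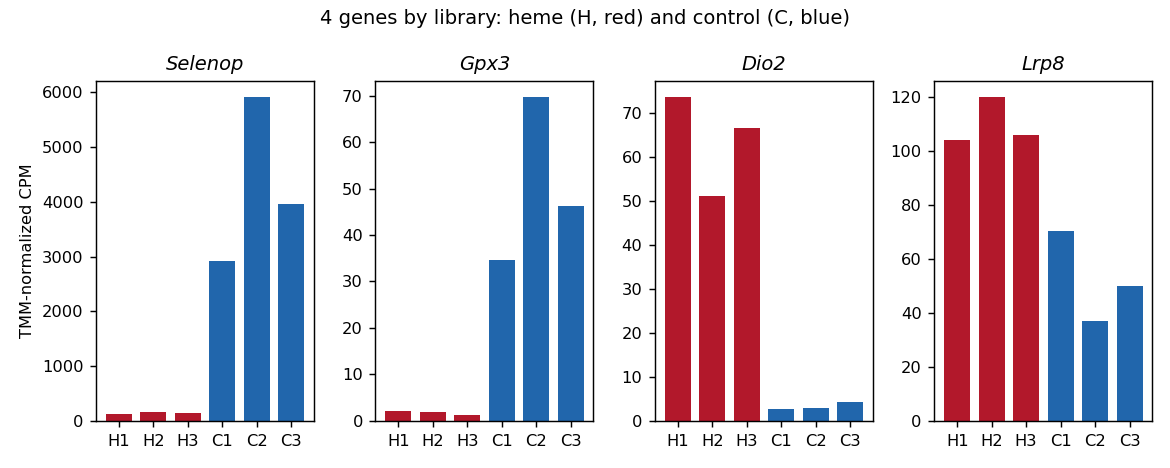
TMM-normalized CPM of Selenop, Gpx3, Dio2 and Lrp8 in each library, with heme libraries (H1 to H3) in red and control libraries (C1 to C3) in blue, each panel on its own axis from 0. Selenop and Gpx3 are low in all heme libraries and share the order of the control libraries, while Dio2 and Lrp8 are higher in all heme libraries.

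The thioredoxin reductases keep thioredoxin, a small protein that reduces disulfide bonds, in its active form. Txnrd1, the cytosolic enzyme (chr10:82833951-82897712), was 961, 978 and 965 CPM in heme-treated cultures, against 404, 368 and 378 CPM in control cultures. It rose by 1.34 ± 0.07 on the log2 scale (adjusted p = 2.06e-07), or 2.53-fold, and the heme-treated replicates were close together (CV 0.922%). Txnrd3, a thioredoxin-glutathione reductase best known from testis, also rose, at a lower level, with 14.5, 14.2 and 13.6 CPM in heme-treated cultures, against 7.90, 7.82 and 7.16 CPM in control cultures (0.89 ± 0.09, adjusted p = 2.93e-05). Txnrd2, the mitochondrial enzyme, averaged 18.6 ± 0.602 CPM in heme-treated cultures and 17.7 ± 1.88 CPM in control cultures (SD, n = 3 each), and did not pass (0.07 ± 0.09, adjusted p = 0.543). Msrb1, a methionine sulfoxide reductase that repairs oxidised methionine, was 212, 198 and 198 CPM in heme-treated cultures, against 146, 210 and 207 CPM in control cultures. The groups overlapped (0.11 ± 0.12, adjusted p = 0.458), and control replicate 1 was the low library.

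Dio2, the deiodinase that turns the prohormone thyroxine into active thyroid hormone, had the largest rise of the list (chr12:90724552-90738438). Its level was 73.6, 51.2 and 66.7 CPM in heme-treated cultures, against 2.76, 2.98 and 4.19 CPM in control cultures. The log2 fold change was 4.27 ± 0.18 (adjusted p = 8.14e-08), or 19.3-fold, with no overlap between the groups. Per kilobase of exon, Dio2 was at 11.0 CPM in heme-treated cultures and 0.570 CPM in control cultures, so among selenoproteins it stayed below the middle of the range in level even with heme. The other deiodinases were not detected at a testable level. Dio3 had 0 counts in all 6 libraries, and Dio1 was at most 0.079 CPM, where 3 counts correspond to 0.101 to 0.119 CPM in heme libraries and 0.0829 to 0.0917 CPM in control libraries. Gpx2 and Selenov, the remaining selenoprotein genes, also had 0 counts in all libraries.

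Of the 7 members grouped here as selenoproteins of the endoplasmic reticulum, 4 were higher, 1 was lower and 2 did not pass. Dio2, described above, was not counted in this group. The 71.4% called was near the 62.5% of all genes tested. The rises within this group were small. Selenos, which works with the degradation machinery of misfolded proteins, was 61.9, 63.4 and 66.9 CPM in heme-treated cultures, against 46.2, 45.7 and 46.3 CPM in control cultures (0.48 ± 0.06, adjusted p = 0.000106). Selenok, which binds the same machinery and the palmitoyltransferase Zdhhc6, was 100.3, 100.3 and 97.3 CPM in heme-treated cultures, against 79.5, 78.2 and 73.7 CPM in control cultures (0.36 ± 0.06, adjusted p = 0.000533). Selenof, a partner of the folding sensor Uggt1, was 200.3, 213 and 214 CPM in heme-treated cultures, against 175, 181 and 182 CPM in control cultures. Its rise of 0.22 ± 0.06 (adjusted p = 0.00909) was 0.00 (adjusted p = 0.977) when library sizes alone set the scale, and Selenok (0.14, adjusted p = 0.069) also fell short of the threshold there. Selenoi, a phospholipid-synthesising enzyme, was 22.8, 23.7 and 20.5 CPM in heme-treated cultures, against 17.4 to 20.7 CPM in control cultures. The groups overlapped, and its call (0.26 ± 0.09, adjusted p = 0.0357) was lost without heme replicate 1 or 2 or control replicate 2 or 3, and with DESeq2 (adjusted p = 0.0504).

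Selenon, linked to calcium handling and muscle disease in humans, was 54.2, 57.5 and 52.1 CPM in heme-treated cultures, against 75.4, 63.4 and 60.9 CPM in control cultures. It fell by 0.29 (SE 0.09, adjusted p = 0.018), and the call was lost without heme replicate 1 (adjusted p = 0.0583) or heme replicate 3 (adjusted p = 0.0783). Without control replicate 1, the highest library, it was -0.19 (adjusted p = 0.0275). Selenom and Selenot, both with thioredoxin-like folds, were -0.04 (adjusted p = 0.767) and -0.09 (adjusted p = 0.32) and did not pass. A list of 12 partner genes covers selenoproteins in general, the thioredoxin and glutathione systems included, and not only those of the endoplasmic reticulum. Of these 12, 10 were higher and 1 was lower, against 31.7% and 30.8% of all genes tested. Gsr (1.70), Vcp (0.82), Txn1 (0.68) and Derl2 (0.62) had the largest changes on the log2 scale. They encode glutathione reductase, the AAA ATPase that pulls proteins from the membrane, thioredoxin and a channel component of the degradation machinery. Txnip, an inhibitor of thioredoxin, was the 1 lower gene (-0.37, adjusted p = 0.0456).

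The remaining selenoproteins were Selenoh, Selenoo and Selenow. Selenoh, a nuclear redox protein, fell by 1.42 on the log2 scale (SE 0.13, adjusted p = 9.29e-06), with 2.90, 3.12 and 2.64 CPM in heme-treated cultures, against 8.18, 7.31 and 7.71 CPM in control cultures. Selenoo, a mitochondrial pseudokinase that adds AMP to proteins, was 22.4, 20.2 and 19.8 CPM in heme-treated cultures, against 28.0, 33.4 and 33.1 CPM in control cultures (-0.60 ± 0.09, adjusted p = 0.000354). Its exons share 26.7% of their bases with Tubgcp6 on the other strand, for which the fold change was -0.55. The strand setting of the counting is not given, so the Selenoo value is uncertain. Selenow, a small glutathione-binding protein, was 26.0, 21.7 and 22.5 CPM in heme-treated cultures, against 17.5, 16.7 and 20.2 CPM in control cultures. Its rise (0.37 ± 0.10, adjusted p = 0.00967) ranged from 0.29 to 0.45 with 1 library left out, and was 0.15 (adjusted p = 0.204) when library sizes alone set the scale. Gpx1, Selenoh, Selenow and Msrb1 are among the selenoprotein mRNAs known to decay when selenium is scarce. Here 2 of these 4 fell, 1 rose and 1 did not pass, where 30.8% of all genes tested were lower and 31.7% higher. Whether selenium supply differed between the groups was not tested. These 4 were grouped after their values were seen.

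The genes that make, load, insert and recycle selenocysteine changed by less than 0.7 on the log2 scale. Of the 8 such genes other than Sephs2, 1 was higher, 4 were lower and 3 did not pass, so 62.5% were called, the same share as among all genes tested. Sephs2, the selenophosphate synthetase that is itself a selenoprotein, averaged 117 ± 5.56 CPM in heme-treated cultures and 121 ± 11.2 CPM in control cultures (-0.05, adjusted p = 0.634). Its exons share 36.4% of their bases with Gm44729 on the opposite strand, so the Sephs2 value is uncertain. Pstk, the kinase that phosphorylates seryl-tRNA, and Sepsecs, the synthase that completes selenocysteine on the tRNA, were -0.01 (adjusted p = 0.936) and 0.03 (adjusted p = 0.773). Pstk shares 58.8% of its exon bases with Ikzf5 on the opposite strand, so its value is uncertain. Trnau1ap, which associates with the selenocysteine tRNA, was -0.15 (adjusted p = 0.201).

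Secisbp2 and Secisbp2l, which encode the SECIS-binding protein and its paralogue, changed in opposite directions. Secisbp2, the factor needed for insertion, was 24.2, 23.2 and 26.3 CPM in heme-treated cultures, against 17.0, 15.3 and 15.2 CPM in control cultures (0.63 ± 0.08, adjusted p = 0.000131). Secisbp2l was 79.1, 94.6 and 80.7 CPM in heme-treated cultures, against 125, 121 and 133 CPM in control cultures (-0.58 ± 0.08, adjusted p = 0.000197). Neither pair of groups overlapped. Per kilobase of exon, Secisbp2l remained the higher of the pair, at 10.3 CPM with heme and 15.4 CPM in controls, against 5.31 CPM with heme and 3.42 CPM in controls for Secisbp2.

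Scly, the lyase that releases selenium from selenocysteine for reuse, was 25.9, 23.9 and 25.5 CPM in heme-treated cultures, against 40.2, 37.5 and 35.6 CPM in control cultures (-0.59 ± 0.07, adjusted p = 8.66e-05). Sephs1, a paralogue of the selenophosphate synthetase with no such activity, averaged 28.0 ± 0.530 CPM with heme and 36.2 ± 1.60 CPM in controls (SD, n = 3 each) and fell by 0.37 (adjusted p = 0.000888). Eefsec, the selenocysteine elongation factor, was 9.93, 11.5 and 11.1 CPM in heme-treated cultures, against 15.6, 12.5 and 13.5 CPM in control cultures. It fell by 0.36 (SE 0.11, adjusted p = 0.0186), and was not called without heme replicate 1 (adjusted p = 0.0792).

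**Figure D3:**
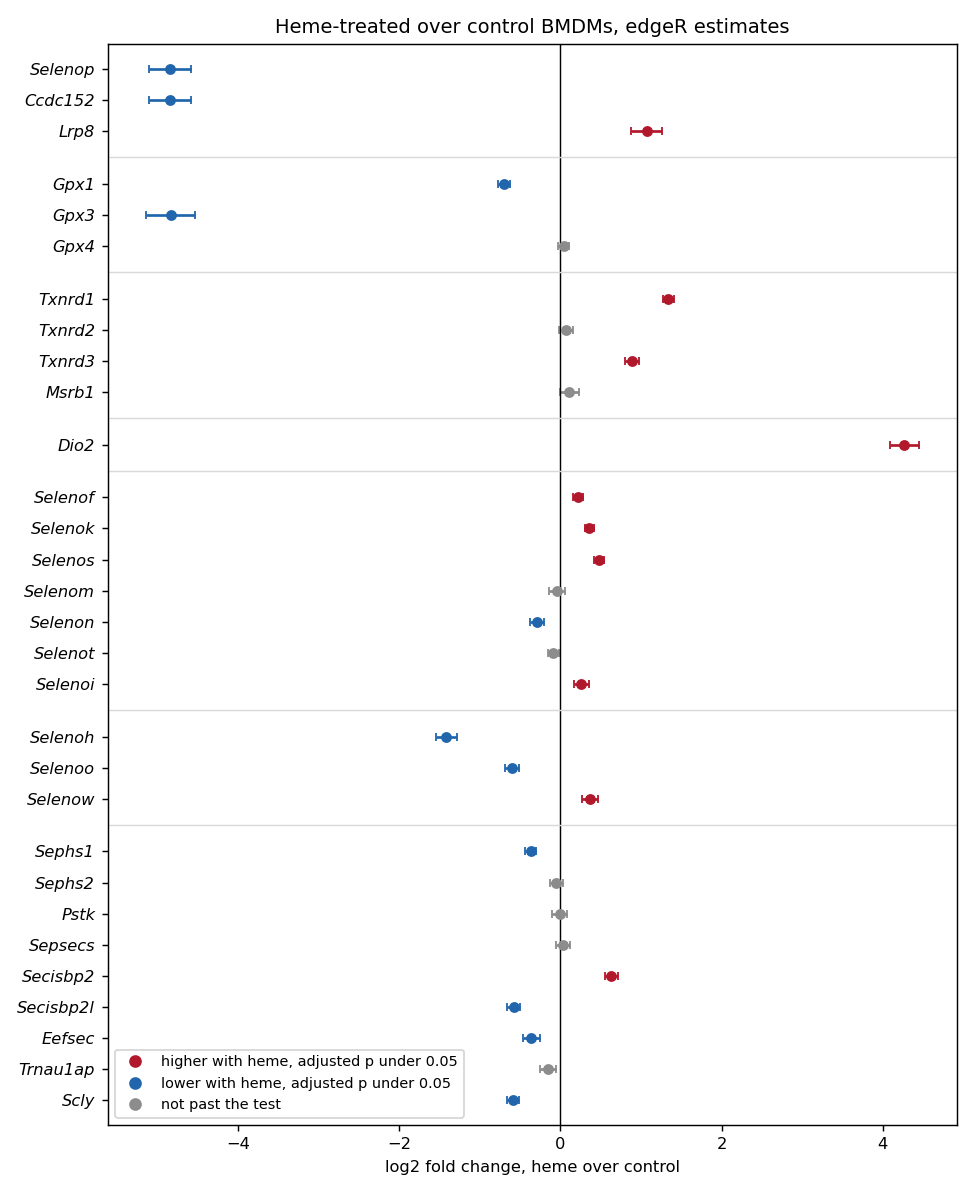
Log2 fold change of each of the 30 genes, heme-treated over control BMDMs, with bars of 1 standard error from the edgeR fit; red is higher, blue is lower and grey did not pass at an adjusted p of 0.05. Selenop, Ccdc152 and Gpx3 lie near -4.8 and Dio2 at 4.27, and 26 of the 30 genes lie within 1.5 of 0.

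The lists of genes around the pathway changed in different directions. For comparison, 31.7% of all genes tested were higher and 30.8% were lower. Of 12 auxiliary factors of the selenocysteine tRNA and of SECIS complexes, 4 were higher, 3 were lower and 5 did not pass. Sars, the enzyme that loads serine on the tRNA before conversion, was the largest change, at 212 ± 18.2 CPM with heme and 115 ± 5.67 CPM in controls (SD, n = 3 each; log2 fold change 0.88, adjusted p = 8.82e-06). Ncl, an RNA-binding protein, was higher by 0.27. Alkbh8, which modifies the wobble base of this tRNA, and Celf1, an RNA-binding protein, fell by 0.40 and 0.27. Of 7 genes that carry cysteine where a relative carries selenocysteine, 3 were tested, and Msrb2 was lower (-0.84, adjusted p = 0.00207). Of 7 genes of selenium uptake and metabolism, 5 were tested, 2 higher and 3 lower. Lrp2, an endocytic receptor that takes up Selenop in kidney, had 12, 13 and 15 counts in heme-treated libraries, against 2, 0 and 1 in control libraries. Selenbp2, a relative of Selenbp1, averaged 0.296 ± 0.119 CPM with heme and 1.45 ± 0.252 CPM in controls (-2.29, adjusted p = 0.000193). Selenbp1, a selenium-binding methanethiol oxidase, averaged 12.6 ± 0.856 CPM with heme and 26.5 ± 3.70 CPM in controls (-1.07, adjusted p = 2.79e-05). Cth, which splits cystathionine, had 30, 25 and 41 counts in heme-treated libraries, against 2, 0 and 1 in control libraries, so a fitted fold is no bound there or for Lrp2.

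Setting all selenoproteins on one scale shows how the mixture differed. Levels were divided by exon length, as CPM per kilobase, and summed over the 20 genes. The sum was 907 ± 3.99 in heme-treated cultures and 2313 ± 586 in control cultures (SD, n = 3 each). Without Selenop, the sums were 855 ± 9.58 in heme-treated cultures and 812 ± 61.2 in control cultures. The gap of these means was smaller than the SD of the control cultures, but this depended on the scale. With the longest transcript as length, an alternative added after the data were seen, the sums without Selenop were 1198 ± 11.7 in heme-treated cultures and 1091 ± 73.2 in control cultures, and the gap exceeded that SD. In CPM with no division by length they were 2433 ± 4.06 in heme-treated cultures and 1861 ± 75.2 in control cultures, or 1.31-fold higher with heme. Selenop made up 5.74% ± 0.854 of the summed level in heme-treated cultures and 63.8% ± 6.50 in control cultures. Msrb1, Gpx4, Txnrd1 and Gpx1 were the 4 highest selenoproteins with heme, at 161, 138, 137 and 99.6 CPM per kilobase. In control cultures Selenop led at 1502 CPM per kilobase, followed by Gpx1 at 162, Msrb1 at 149 and Gpx4 at 135. The order among these genes depended on the length used. With the longest transcript, the 4 highest with heme were Txnrd1 at 267, Gpx4 at 239, Msrb1 at 167 and Gpx1 at 134, and in controls Selenop was followed by Gpx4 at 233, Gpx1 at 218 and Msrb1 at 155. Txnrd1 took 15.1% ± 0.159 of the summed level in heme-treated cultures and 2.46% ± 0.730 in control cultures, or 21.1% ± 0.205 and 3.54% ± 1.04 in the same groups with the longest transcript.

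**Figure D4:**
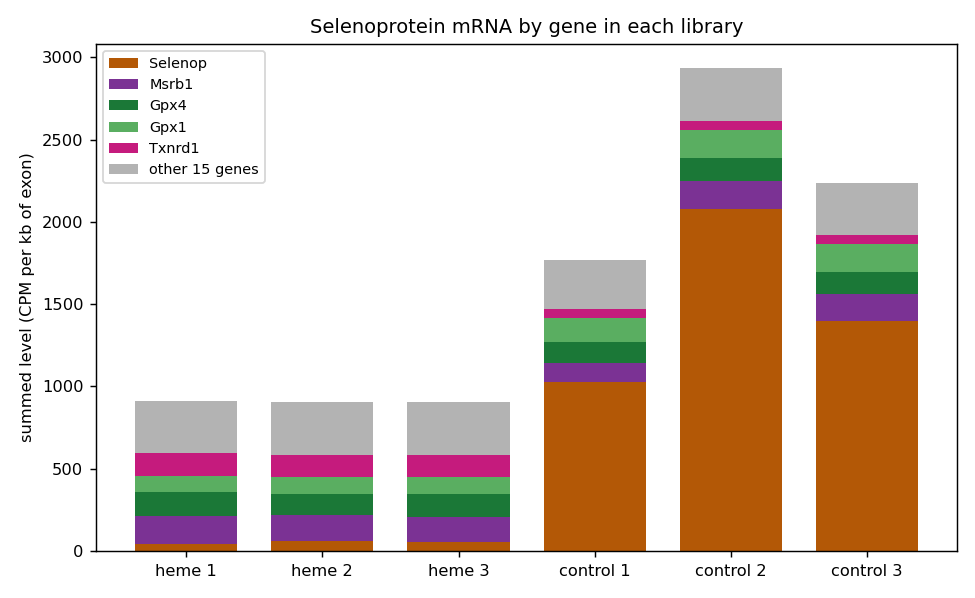
Summed level of the 20 selenoprotein genes in each library, in CPM per kilobase of exon, stacked by gene, with heme libraries left of control libraries. The heme bars are 907 on average with a thin Selenop layer, and the control bars are 2313 on average and are mostly Selenop, while the other layers sum to 855 in heme libraries and 812 in control libraries on average.

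Since Selenop mRNA carries 10 selenocysteine codons where most carry 1, the same levels were also multiplied by the codons per transcript. This weighted sum was 1325, 1456 and 1378 in heme-treated cultures, against 11031, 21658 and 14787 in control cultures, so control cultures had 11.4 times the mean of heme-treated cultures. The Selenop codons made up 37.4% ± 3.75 of it in heme-treated cultures and 94.5% ± 1.40 in control cultures (SD, n = 3 each). Without Selenop, the weighted sums were 866 ± 11.3 in heme-treated cultures and 813 ± 61.3 in control cultures. These sums describe mRNA only, and assume that each gene's reads come from the transcript used for the codon count.

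The promoters were searched for the core of the antioxidant response element, the site bound by NRF2, a factor activated by oxidants and heme. The letters searched were TGACNNNGC on either strand, in windows of 250 bases before and 50 after each RefSeq start on GRCm38.p6. Of 29 members with a window, 3 held a match (10.3%), against 14.0% of 27025 genes. All 3 were among the 10 higher members, and none of the 11 lower or 8 uncalled members with a window held one, which is a description of few genes. In the lines below, the plus strand runs 5′ to 3′ and capitals mark the match, which lies on the minus strand for Txnrd1.
Txnrd1, chr10:82859104-82859132: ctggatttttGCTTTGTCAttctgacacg
Selenok, chr14:29968326-29968354: gttacttgtgTGACTGGGCggaacctcta
Lrp8, chr4:107802840-107802868: cagtcttttcTGACAATGCgtttccgggg
A match in these letters is not a site shown to be bound. Txnrd3, Dio2, Selenof, Selenoi, Selenos, Selenow and Secisbp2, which also rose, held none in these windows. Txnrd1 and Lrp8 had more windows searched than most members, which gave them more room for a match.

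The libraries held 27201038 to 32366848 counts in the heme group and 30509099 to 32994595 in the control group. The heme target Hmox1, heme oxygenase 1, averaged 20999 ± 695 CPM with heme and 584 ± 57.7 CPM in controls, in the direction of the labels. Macrophage markers summed to between 37223 and 40484 CPM in heme libraries, against 33728 to 39866 CPM in control libraries, but Lyz2 made up most of these sums. The other 9 summed to between 6227 and 6565 CPM in heme libraries, against 8558 to 9617 CPM in control libraries. Of the 10 markers, 7 were lower, from Cd68 (-0.42) and Adgre1 (-0.60) to Mertk (-1.91) and Fcgr1 (-2.01), and Itgam was higher (0.42). Monocyte markers summed to between 257 and 286 CPM in heme libraries, against 40.0 to 44.8 CPM in control libraries, with 7 of 8 higher. Neutrophil markers summed to between 132 and 176 CPM in heme libraries, against 61.9 to 121 CPM in control libraries, with 7 of the 9 tested higher, and Elane was at 0 counts in all control libraries. Megakaryocyte markers, mainly Pf4, summed to between 179 and 224 CPM in heme libraries, against 26.1 to 43.3 CPM in control libraries. The summed mast cell and basophil markers reached 5.98 CPM at most, and the dendritic, erythroid, B cell, T and NK cell, stromal and endothelial sums 4.34 CPM at most. Beside these marker counts, 31.7% of all genes tested were called higher and 30.8% lower. The part of these marker differences in the 21 called members was not tested.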

How the data were processed

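RNA from 3 heme-treated and 3 control BMDM cultures was sequenced from total RNA with a stranded TruSeq kit. The authors aligned reads with STAR 2.7.0 and deposited unnormalized read counts per Ensembl gene made with featureCounts, with GRCm38.p5 as the genome build named in the submitters' processing notes. Neither strand setting nor annotation release is given in the sources used here. Depth was 27201038 to 32994595 counts per library.

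Symbols, positions, exon lengths and selenocysteine codons came from GENCODE M21 (GRCm38.p6). Of 25700 identifiers, 36 had no symbol. Promoter sequence came from RefSeq (GRCm38.p6). Counts were tested in R 4.3.3 with edgeR 4.0.16 (filterByExpr with a minimum count of 10, TMM, glmQLFit, glmQLFTest, group as the only term), over 12433 genes, with Benjamini-Hochberg adjustment and a threshold of 0.05. The paper's main text names no model for these counts. DESeq2 1.42.0, limma-voom (limma 3.58.1) and other scalings were alternatives. The fit was tested on simulated data. Levels are TMM-normalized CPM, divided by exon-union length where genes were compared. Per the study's description, each library holds macrophages of a single mouse; the sources used here do not say whether heme-treated and control cultures share mice.

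All 30 members are named. From each related list, the text could name at most 4 called genes, ranked by size of change, plus 2 changed the opposite way. The members and lists were chosen with earlier results of these data known.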

Additional observations from a re-analysis of the deposited data

How the results depend on the processing

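Without TMM, with library sizes alone, the median log2 fold change of all genes was -0.22, and 2580 genes were higher and 5814 lower, against 3938 and 3831. Among the 30 genes, 6 were then higher and 17 lower, against 10 and 11. There Gpx4 was -0.18 and Selenof 0.00, on the other side of 0 or at it. Selenoi (0.04), Selenok (0.14) and Selenow (0.15) lost their calls, and Selenom (-0.26), Selenot (-0.31), Sephs2 (-0.27), Pstk (-0.23) and Trnau1ap (-0.37) became lower. Median-of-ratios and upper-quartile scaling, no filter and limma-voom changed none of the 30 calls, and DESeq2 lost that of Selenoi. With the replicate block, 7164 genes were called and the 30 genes again gave 10 higher and 11 lower. The same-numbered libraries did not vary together (correlations -0.0998, -0.142 and -0.0683), so the numbers were not taken as pairs. With 1 library left out, 6710 to 8039 genes were called, with 9 to 10 members higher and 9 to 11 lower, and calls of Selenoi, Selenon and Eefsec were lost. With the longest transcript as length, an alternative added after the data were seen, Selenop made up 5.6% of the summed selenoprotein level with heme and 64.1% in controls. Depth limits Gpx3, Selenoh and the control level of Dio2 most among the 30.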
